A study of Homo sapiens with 6 samples.

Results

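The clustered protocadherin genes were followed in a human mesenchymal stem cell line with and without a CRISPR knockout of SRRM4. They were taken as the protein-coding genes of the count table whose symbols combine PCDH with A, AC, B, GA, GB or GC and a number. This gave 53 of the 58735 genes in the table. The alpha cluster held 15 of them (PCDHA1 to PCDHA13, PCDHAC1 and PCDHAC2), the beta cluster 16 (PCDHB1 to PCDHB16) and the gamma cluster 22 (PCDHGA, PCDHGB and PCDHGC genes).

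UE7T-9 is a bone marrow mesenchymal stem cell line, grown here in DMEM. The control group was UE7T-9 given as wild type (WT), and the SRRM4 KO group was UE7T-9 that had received a lentiviral CRISPR v2 vector with a guide against SRRM4, with 3 libraries in each. SRRM4 is a splicing factor best known for the inclusion of microexons in neurons. The KO cells are 1 line grown from a single diluted cell after antibiotic selection, and its makers found reduced rather than absent SRRM4 protein. The genotype and the derivation of that clone therefore cannot be told apart, and the labels do not say whether the 3 libraries of a group came from separate cultures.

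Clustered protocadherins are cell surface proteins of the cadherin superfamily. They are best known in neurons, where each cell transcribes only some of the genes and cells with the same combination recognize each other through like-to-like binding. Each alpha and gamma gene has its own promoter and a large variable exon, which codes for the outer part and the membrane span and is spliced to constant exons shared by the whole cluster. Beta genes have a single coding exon each and no constant exons. Promoter choice is known to depend on CTCF and cohesin, which loop distant enhancers to chosen promoters, and on DNA methylation of the others.

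All 53 genes lie on the plus strand of chromosome 5 in GRCh38, within chr5:140786136-141512981, in the order alpha, beta, gamma. In the GENCODE release 29 models the alpha genes share 2866 bases of constant exons and the gamma genes 2181 bases. Reads in these shared exons were not credited to every gene that holds them. PCDHGB6, for example, had 1, 0 and 3 counts in the SRRM4 KO libraries, while PCDHGC3, with the same constant exons, had 2428, 2615 and 2137. Whether these reads were dropped or given to some of the genes is not known. If they were dropped, the counts of alpha and gamma genes chiefly measure the variable exons. The levels per kilobase of unshared exon below rest on that reading. The use of the constant exons cannot be read from the counts.

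The promoters carry short runs of letters that differ between the clusters. RefSeq promoters (GRCh38.p14, 250 bases before to 50 bases after the start) were found for 47 of the 53 genes. They were not found for PCDHA3, PCDHA13, PCDHB6, PCDHB11, PCDHGA12 and PCDHGC5. The letters CGCT, the core of the conserved protocadherin promoter element, were found on either strand in 12 of 13 alpha, 14 of 14 beta and 20 of 20 gamma promoters, but also in 70.0% of the 35116 promoters of the genome. Longer runs that contain CGCT were rarer. GATGTCGCT was held by 9 of 13 alpha promoters and 0.105% of all promoters, GGTGGCGCT by 13 of 14 beta promoters and 0.501% of all, and CGCTGTT by 13 of 20 gamma promoters and 2.26% of all. In the windows that hold these runs, CGCT began at a median of -48, -61 and -48 bases from the start in the alpha, beta and gamma clusters. The gamma run was also held by 1 beta promoter, PCDHB3, where it shares the CGCT of the beta run. These runs were chosen after the promoters of these genes had been read, so their shares among the members are descriptions.

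In the windows below, on the gene strand with CGCT in capitals, beta genes that rose in SRRM4 KO are shown beside PCDHB14, which was not called. All 6 hold the same run.
PCDHB2 (chr5:141094545-141094578): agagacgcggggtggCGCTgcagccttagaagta
PCDHB3 (chr5:141100394-141100427): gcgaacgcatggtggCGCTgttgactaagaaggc
PCDHB4 (chr5:141121724-141121757): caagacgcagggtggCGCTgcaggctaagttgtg
PCDHB5 (chr5:141135180-141135213): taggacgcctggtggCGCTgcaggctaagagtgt
PCDHB15 (chr5:141245315-141245348): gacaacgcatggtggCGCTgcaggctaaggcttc
PCDHB14 (chr5:141223264-141223297): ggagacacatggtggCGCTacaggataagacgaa

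Next are PCDHGA3, PCDHGA10 and PCDHGA7, which fell and hold the gamma run, beside PCDHGA6, which holds it and was not called. PCDHGA11, which also fell, has no such window because its promoter lacks the run. PCDHGB4, which fell, and PCDHGB5, which was not called, differ at 1 of 34 bases.
PCDHGA3 (chr5:141343768-141343801): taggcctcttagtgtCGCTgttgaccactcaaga
PCDHGA10 (chr5:141412932-141412965): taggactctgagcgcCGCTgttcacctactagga
PCDHGA7 (chr5:141382650-141382683): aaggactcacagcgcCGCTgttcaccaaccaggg
PCDHGA6 (chr5:141373836-141373869): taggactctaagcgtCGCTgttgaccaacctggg
PCDHGB4 (chr5:141387618-141387651): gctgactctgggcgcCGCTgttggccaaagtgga
PCDHGB5 (chr5:141397864-141397897): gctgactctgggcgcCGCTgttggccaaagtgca

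For the alpha cluster, PCDHA1, the only alpha gene with enough counts to test, is shown beside PCDHA8, which had no counts.
PCDHA1 (chr5:140786087-140786120): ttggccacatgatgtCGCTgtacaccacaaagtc
PCDHA8 (chr5:140841131-140841164): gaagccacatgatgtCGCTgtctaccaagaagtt

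The libraries held 21951370 to 22916826 counts in control and 21496117 to 23868323 in SRRM4 KO. At these depths 3 counts, set here as the bound for a count of 0 and not a hard limit, are worth 0.123 to 0.139 CPM (counts scaled by library size). This floor covers counting error only. SRRM4 itself had 0 counts in all 6 libraries, so the knockout cannot be checked in these counts. Control replicate 1 stood apart. Its counts differed from those of the other controls with a chi-square per degree of freedom of 23.0 and 23.5, against 5.06 to 9.73 for the other pairs within a group, and it held counts on 22403 genes against 20127 to 20674 in the others. Without this library no called member lost its adjusted p, and only PCDHB11 and PCDHGB2 came below the fold threshold, with values given for each. Of the mesenchymal markers, all 6 were tested and CD44 rose while COL1A1 and THY1 fell. All 6 had an adjusted p under 0.05 in edgeR's quasi-likelihood test, 3 higher and 3 lower. Below the fold threshold, NT5E (log2 fold change 0.52) and VIM (0.36) lay higher and ENG (-0.34) lower. The summed level of the 6 mesenchymal markers was 27788 to 31062 CPM in control and 13169 to 14799 CPM in SRRM4 KO, of which COL1A1 made up the most. The endothelial sum was 9.78 to 11.6 CPM in control and 3.82 to 4.82 CPM in SRRM4 KO, with KDR called lower, PECAM1 at 0.0757 and 0.0752 CPM and CDH5 at 0.0154 and 0.0150 CPM. The neuronal sum was 40.5 to 47.0 CPM in control and 65.6 to 67.0 CPM in SRRM4 KO, with NEFL called higher and STMN2 at 0 in all libraries. NEFL alone, at 15.6 and 40.6 CPM, carried this difference, and SYT1 was at 24.7 and 22.9 CPM and SNAP25 at 3.47 and 2.37 CPM. The haematopoietic sum was 20.3 to 21.4 and 17.9 to 21.0 CPM and the epithelial sum 97.0 to 118 and 101 to 108 CPM. The part of these shifts in the protocadherin results was not tested.

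In the beta cluster 5 genes rose and 1 fell, in the gamma cluster 1 rose and 8 fell, and in the alpha cluster PCDHA1 rose from near 0. The comparison used the quasi-likelihood test of edgeR, with p-values adjusted by the Benjamini-Hochberg method over the 15341 genes that passed its filter on low counts. A gene was called, and is said to have risen or fallen, where the adjusted p was under 0.05 and the log2 fold change (SRRM4 KO over control) lay beyond 1. Of all genes tested, 12.6% were called, 5.45% higher and 7.14% lower. Of the 53 members, 35 were tested and 16 of these were called, 7 higher and 9 lower. A further 10 had some counts but too few to test, and 8 had 0 counts in all libraries. An adjusted p under 0.05 at any fold was reached by 23 of the 35 members and by 41.6% of all genes tested. The middle absolute log2 fold change was 0.90 over the members tested and 0.35 over all genes tested. In these bulk samples, fewer cells using a gene and less RNA of it per cell cannot be told apart.

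**Figure D1:**
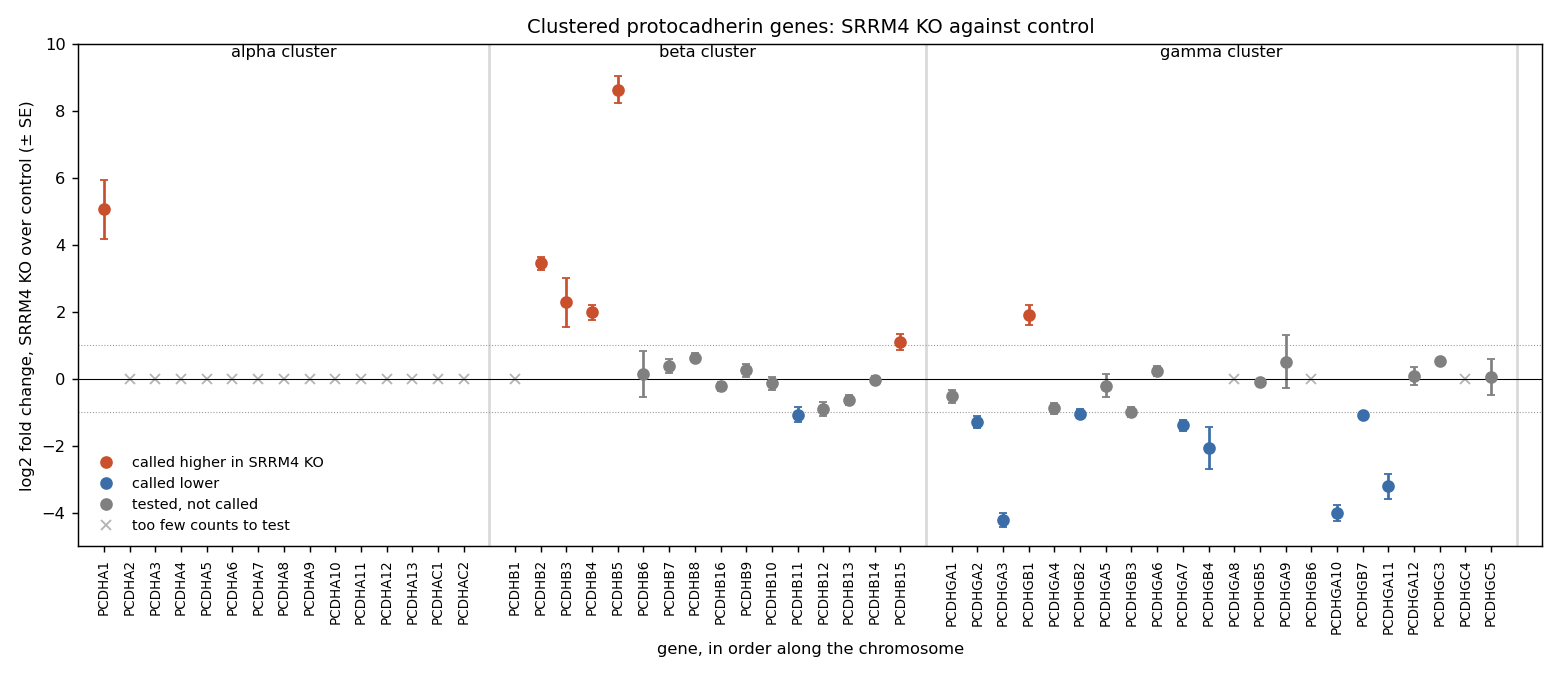
Log2 fold change of SRRM4 KO over control (y axis, with the standard error as bars) for the 53 genes in their order along chromosome 5 (x axis). Red points were called higher (7), blue points lower (9), grey points were tested and not called (19), and crosses on the zero line mark the 18 genes not tested, which have no fold change. PCDHB2 to PCDHB5 stand next to each other at 3.46, 2.29, 1.99 and 8.63, and most gamma points lie below 0.

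The alpha cluster was nearly silent in both groups. Its counts summed to 12, 7 and 20 in the control libraries and to 60, 28 and 49 in the SRRM4 KO libraries, which is 0.591 ± 0.288 and 2.02 ± 0.792 CPM (SD, n = 3). PCDHA5, PCDHA8, PCDHA9, PCDHA11, PCDHA13, PCDHAC1 and PCDHAC2 had 0 counts in all 6 libraries. Each of these zeros is read against the set bound of 3 counts per library.

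PCDHA1 (ENSG00000204970), the alpha gene that lies farthest from the shared exons, was the exception. It had 2, 0 and 0 counts in control replicates 1 to 3 and 38, 18 and 26 in SRRM4 KO replicates 1 to 3. Every SRRM4 KO library was above every control library, and non-overlap in this direction was seen for 25.9% of all genes tested. The fitted log2 fold change was 5.07 (SE 0.88) with an adjusted p of 0.00028 in edgeR's quasi-likelihood test. With 2 control counts in all, that fold depends on the prior count of the fit. The ratio of the summed counts was 39.2, with an exact 95% counting interval of 10.5 to 329. Without control replicate 1, which held both control counts, SRRM4 KO was at least 8.84-fold higher, against 3 counts per control library. PCDHA1 made up 60.2% of the alpha sum in SRRM4 KO.

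The 7 other alpha genes with any count stayed at or below 9 counts in every library. PCDHA7 had the most in control, with 5, 6 and 9 counts, and 8, 2 and 4 in SRRM4 KO. PCDHA10 had 2, 1 and 2 counts in control and 1, 7 and 7 in SRRM4 KO. PCDHA4 had 8 counts in control replicate 3 and 0 in the other 5 libraries, and PCDHA12 had 8 in SRRM4 KO replicate 1 and 1 in control replicate 1. PCDHA2 had 2, 0 and 0 counts in control and 4, 1 and 5 in SRRM4 KO. The ratio of its summed counts was 4.77, with an exact 95% counting interval of 1.02 to 44.8, which leaves out the spread between libraries, and the groups overlapped. None of these 7 genes had enough counts for the test.

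In the beta cluster 15 of the 16 genes were tested, and PCDHB1 had 0 counts in all libraries. PCDHB2, PCDHB3, PCDHB4, PCDHB5 and PCDHB15 rose, PCDHB11 fell and 9 genes were not called. The 5 of 15 that rose stand beside 5.45% of all genes tested. The middle log2 fold change of the cluster was 0.26, with 9 genes above 0 and 6 below, against -0.01 for all genes tested. It was 0.40 without SRRM4 KO replicate 1, 0.15 without SRRM4 KO replicate 2 and 0.10 over genes with at least 10 counts in every library. Tested against the fold threshold itself, PCDHB2, PCDHB4 and PCDHB5 remained higher, and the PCDHB3, PCDHB15 and PCDHB11 calls were lost. Beta protocadherins lack the shared cytoplasmic part of the other clusters, and in neurons they take part in the same like-to-like recognition.

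PCDHB5 (ENSG00000113209, chr5:141135218-141138625) had the largest fitted fold change of all members. It had 0, 2 and 0 counts in control and 292, 360 and 332 in SRRM4 KO. The gene was thus at or near 0 in every control library and at a mean of 14.3 ± 1.07 CPM (SD, n = 3) in SRRM4 KO. The ratio of the summed counts was 470, with an exact 95% counting interval of 130 to 3885. Without control replicate 2, which held both control counts, the difference was at least 105-fold against 3 counts per control library. The fitted log2 fold change of 8.63 (SE 0.40, adjusted p = 3.63e-10 in edgeR's quasi-likelihood test) again depends on the prior count.

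PCDHB2 (ENSG00000112852, chr5:141094578-141098703) had 43, 30 and 48 counts in control and 494, 428 and 469 in SRRM4 KO. The groups were far apart, at 1.84 ± 0.399 and 20.4 ± 2.45 CPM. The rise was 11.0-fold, a log2 fold change of 3.46 (SE 0.19, adjusted p = 2.3e-09 in edgeR's quasi-likelihood test).

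PCDHB4 had 47, 39 and 40 counts in control and 153, 178 and 193 in SRRM4 KO. The log2 fold change was 1.99 (SE 0.22, adjusted p = 3.2e-06 in edgeR's quasi-likelihood test). PCDHB15 had 61, 48 and 49 counts in control and 130, 121 and 102 in SRRM4 KO, and its groups did not overlap either. Its log2 fold change was 1.09 (SE 0.24, adjusted p = 0.00168 in edgeR's quasi-likelihood test), and 0.99 without SRRM4 KO replicate 1, which is below the fold threshold.

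PCDHB3 rested on few counts, 6, 0 and 5 in control against 22, 22 and 14 in SRRM4 KO. Its log2 fold change was 2.29 (SE 0.73, adjusted p = 0.0196 in edgeR's quasi-likelihood test). This call was lost without control replicate 2 (adjusted p = 0.0712), SRRM4 KO replicate 1 (0.0724) or SRRM4 KO replicate 2 (0.0609), each in the same test.

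The risers lie mostly together. PCDHB2, PCDHB3, PCDHB4 and PCDHB5 are neighbours at the alpha end of the cluster, and all 4 rose. The 6 genes that follow, PCDHB6, PCDHB7, PCDHB8, PCDHB16, PCDHB9 and PCDHB10, were not called, with log2 fold changes from -0.21 to 0.64. Of these only PCDHB8 had an adjusted p under 0.05 (0.00116 in edgeR's quasi-likelihood test). Its control libraries held 251, 226 and 261 counts and its SRRM4 KO libraries 374, 443 and 385. The 3 genes after them lay lower in SRRM4 KO, although just 1 was called.

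PCDHB11 fell. Its counts were 149, 125 and 122 in control and 76, 69 and 53 in SRRM4 KO. Its log2 fold change was -1.07 (SE 0.22, adjusted p = 0.00126 in edgeR's quasi-likelihood test). It came to -0.97 without control replicate 1 and -0.96 without SRRM4 KO replicate 3, below the fold threshold both times. PCDHB12 had 154, 168 and 129 counts in control and 76, 96 and 82 in SRRM4 KO, a log2 fold change of -0.90, and passed the fold threshold without control replicate 3 (-1.01). PCDHB13 came to -0.62. Both had an adjusted p under 0.05 (0.00208 and 0.00505 in edgeR's quasi-likelihood test).

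PCDHB14 and PCDHB16, among the most abundant beta genes, did not differ beyond the spread of the libraries. PCDHB14 had 485, 422 and 483 counts in control and 451, 486 and 496 in SRRM4 KO, with a log2 fold change of -0.02 (SE 0.12). PCDHB16 had 595, 545 and 454 against 502, 472 and 467, with -0.21 (SE 0.13). The groups overlapped in both genes.

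**Figure D2:**
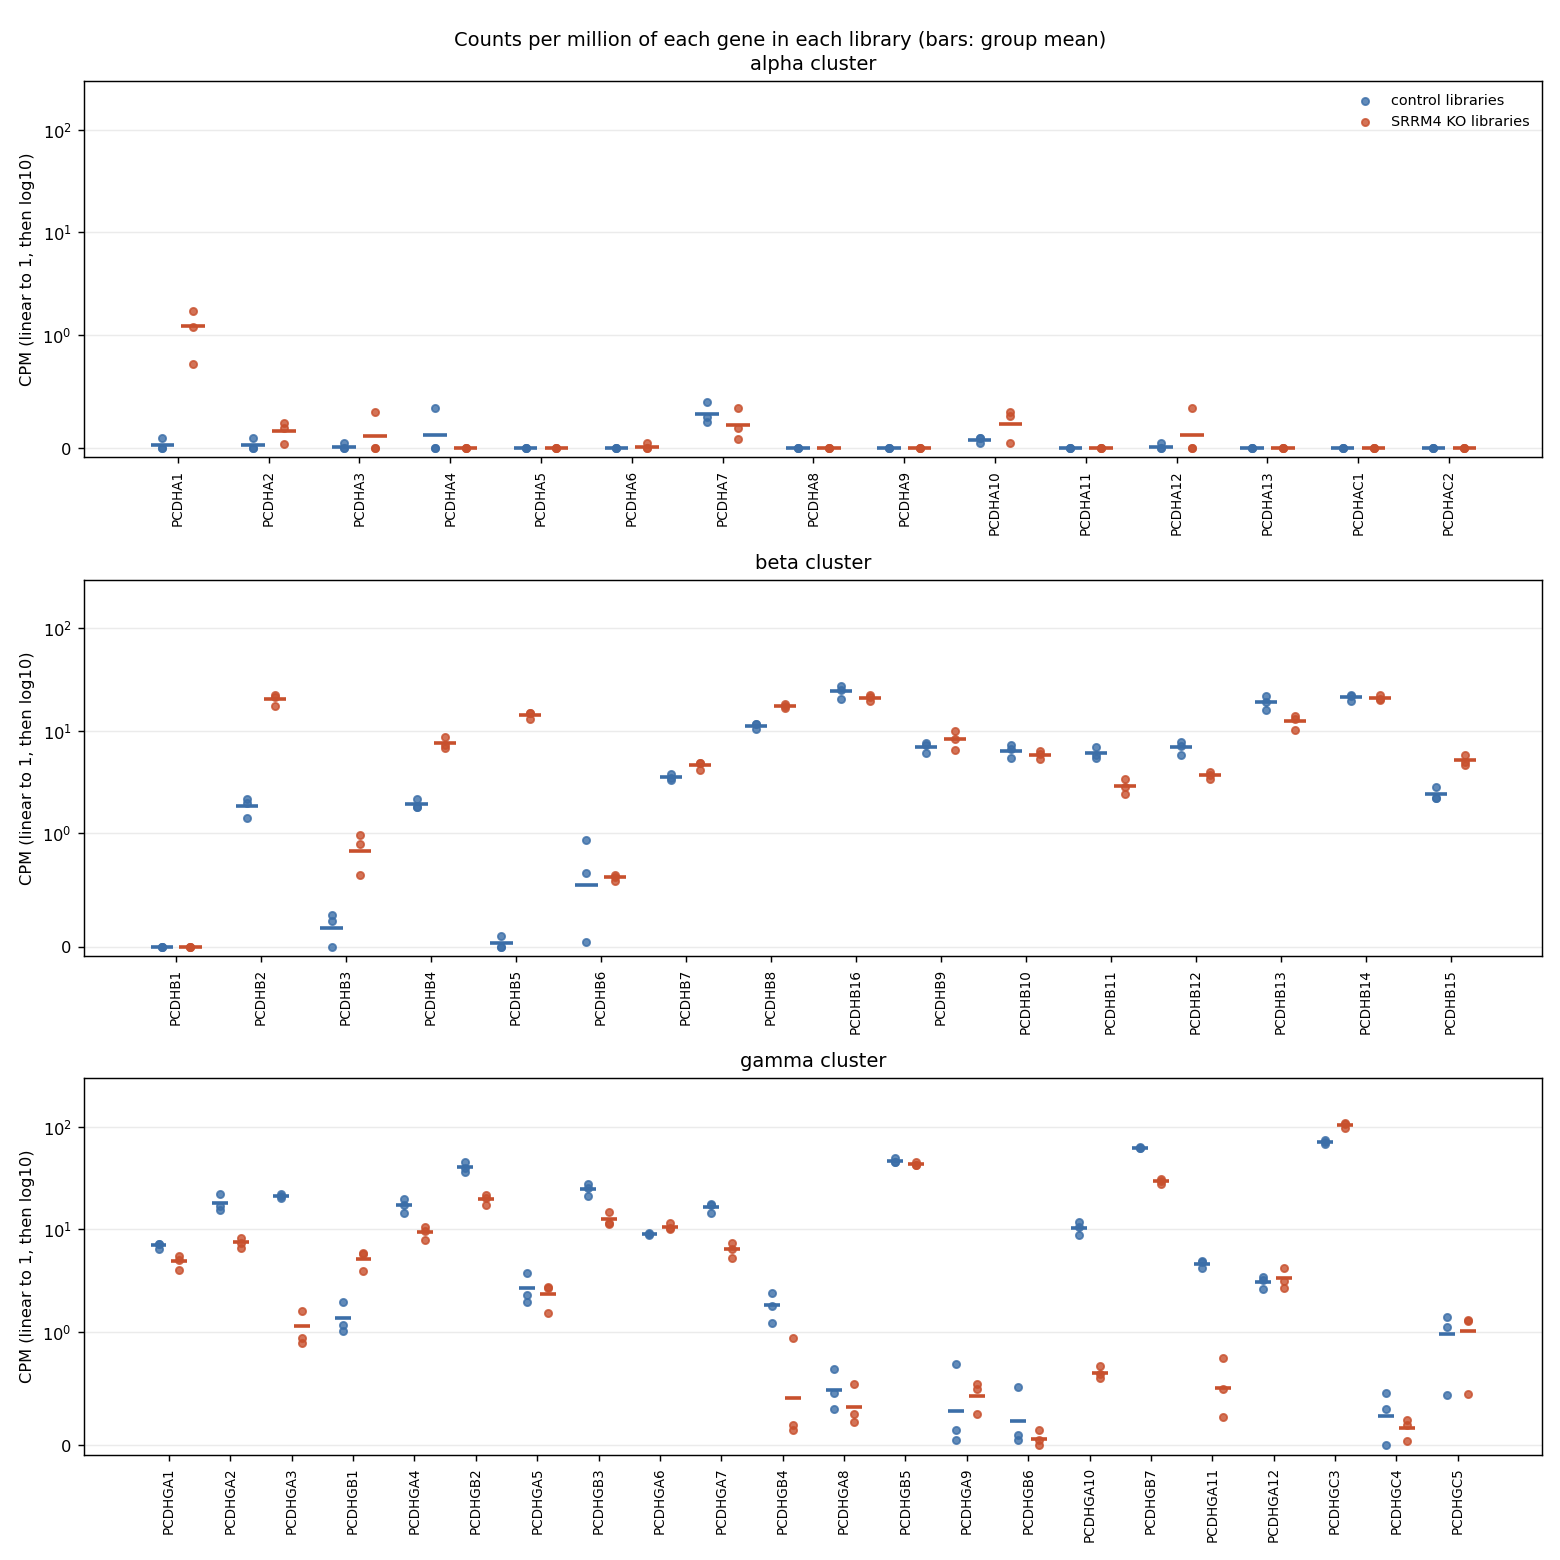
CPM of every gene in each library (y axis, linear up to 1 and log10 above), by cluster and in genomic order (x axis), with control in blue, SRRM4 KO in red and bars for the group means of 3 libraries. The alpha genes other than PCDHA1 lie near 0. PCDHB5 goes from at or near 0 to about 14.3 CPM, and PCDHGA3 from 21.2 to 1.14 CPM.

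The order of the beta genes by level changed with these shifts. Levels are compared between genes as CPM per kilobase of exon not shared with any other gene. In control PCDHB16 stood first at 6.49 ± 0.970 CPM per kilobase, above PCDHB14 (4.55), PCDHB8 (4.47) and PCDHB13 (3.76), of which each overlapped with the next in its range over libraries. PCDHB2 was 11th at 0.525 and PCDHB5 15th at 0.0106. In SRRM4 KO PCDHB8 stood first at 6.94 ± 0.278 CPM per kilobase. PCDHB2 (5.81), PCDHB16 (5.61), PCDHB5 (4.93) and PCDHB14 (4.49) followed, each overlapping with the next.

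Summed over the cluster, beta genes reached 124, 109 and 104 CPM in control and 143, 145 and 150 CPM in SRRM4 KO. The ratio of the group means was 1.30, and no SRRM4 KO library was below a control library. PCDHB2 and PCDHB5 made up 1.64% and 0.0282% of the control sum and 13.9% and 9.80% of the SRRM4 KO sum. Without these 2 genes the sums were 111 ± 10.1 and 111 ± 3.10 CPM, a ratio of 1.01.

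**Figure D3:**
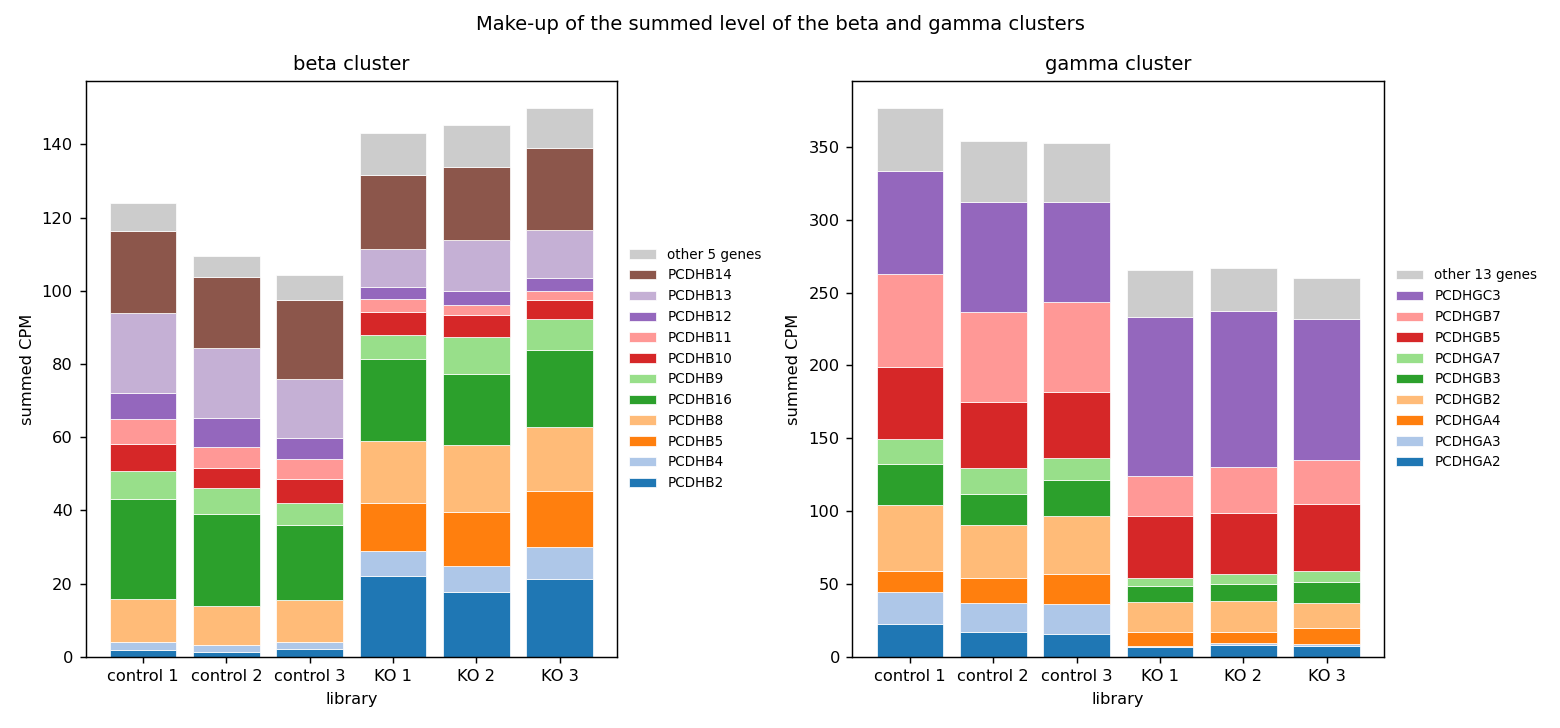
Summed CPM of the beta cluster (left) and the gamma cluster (right) in each library (x axis), with the y axis from 0 and each colored segment giving the CPM of a named gene. The beta columns grow from 104 to 124 CPM in control to 143 to 150 CPM in SRRM4 KO with the PCDHB2 and PCDHB5 segments, and the gamma columns shrink from 353 to 376 CPM to 260 to 267 CPM while the PCDHGC3 segment grows.

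In the gamma cluster 19 of the 22 genes were tested. PCDHGA2, PCDHGA3, PCDHGB2, PCDHGA7, PCDHGB4, PCDHGA10, PCDHGB7 and PCDHGA11 fell and PCDHGB1 rose, so 8 of 19 were lower beside 7.14% of all genes tested. When the difference was tested against the fold threshold itself, PCDHGA3, PCDHGA10 and PCDHGA11 remained lower and PCDHGB1 higher, and the other 5 falls were lost. The middle log2 fold change was -0.88, with 13 genes below 0 and 6 above. PCDHGA4 and PCDHGB3 also had an adjusted p under 0.05 on the lower side. PCDHGA1 did so narrowly (0.0399 in edgeR's quasi-likelihood test). It missed that line with DESeq2 (0.0895), with no filter (0.0631), with the replicate block (0.0528) and when any library but SRRM4 KO replicate 1 was left out (0.0521 to 0.136). The cluster is sorted by sequence into A, B and C subfamilies, whose C genes resemble the C genes of the alpha cluster and are known for less variable use across neurons.

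PCDHGA3 (ENSG00000254245), an A gene, had 482, 434 and 472 counts in control and 20, 23 and 35 in SRRM4 KO. It went from 21.2 ± 1.05 to 1.14 ± 0.387 CPM. The level was 18.5-fold lower, a log2 fold change of -4.21 (SE 0.21, adjusted p = 5.76e-10 in edgeR's quasi-likelihood test). PCDHGA10 (ENSG00000253846) had 193, 254 and 233 counts in control and 14, 17 and 13 in SRRM4 KO. This was 16.1-fold lower, with a log2 fold change of -4.01 (SE 0.24, adjusted p = 5.13e-09 in the same test).

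PCDHGA11 had 106, 91 and 107 counts in control and 11, 6 and 17 in SRRM4 KO, 9.20-fold lower. Its log2 fold change was -3.20 (SE 0.37, adjusted p = 6.07e-06 in edgeR's quasi-likelihood test). These 3 genes do not lie next to each other. Between PCDHGA3 and PCDHGA10 lie 12 gamma genes with log2 fold changes from -2.06 to 1.91 among those tested.

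PCDHGB7, the gamma gene with the second most counts in control, had 1376, 1342 and 1384 counts there and 613, 763 and 660 in SRRM4 KO, with a log2 fold change of -1.08 (SE 0.10, adjusted p = 3.61e-07 in edgeR's quasi-likelihood test). PCDHGB2 had 986, 782 and 888 counts in control and 455, 523 and 383 in SRRM4 KO, with -1.03 (SE 0.12, adjusted p = 7.83e-06 in the same test). It was at -0.94 without control replicate 1 and -0.96 without SRRM4 KO replicate 3, below the fold threshold.

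PCDHGA2 had 484, 365 and 343 counts in control and 148, 202 and 163 in SRRM4 KO, a log2 fold change of -1.29 (SE 0.17, adjusted p = 1.87e-05 in edgeR's quasi-likelihood test). PCDHGA7 had 377, 383 and 325 counts in control and 116, 158 and 163 in SRRM4 KO, with -1.38 (SE 0.17, adjusted p = 7.95e-06 in the same test). In both, all SRRM4 KO libraries were below all control libraries, which was so for 25.9% of all genes tested.

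PCDHGB4 was the least certain of the genes that fell. It had 39, 52 and 27 counts in control and 3, 23 and 4 in SRRM4 KO. The log2 fold change was -2.06, and -3.47 without SRRM4 KO replicate 2. The call was lost without control replicate 2 (adjusted p = 0.0646), SRRM4 KO replicate 1 (0.0553) or SRRM4 KO replicate 3 (0.0544) in edgeR's quasi-likelihood test. In its transcript model 58.5% of the 50-base windows outside the constant exons also occur in another protocadherin model, most of all PCDHGA8. In the gene models, PCDHGB4 and PCDHGA8 each share 4447 exon bases with other members, of which the constant exons make up 2181. Reads on the rest of this stretch may have been split between the genes or left out of both.

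PCDHGB3 lay at the threshold. It had 600, 453 and 565 counts in control and 251, 282 and 323 in SRRM4 KO, with a log2 fold change of -0.98 (SE 0.15). It passed the fold threshold without control replicate 2 (-1.09) or SRRM4 KO replicate 3 (-1.12) and with upper-quartile scaling (-1.01). PCDHGA4 was at -0.88 and PCDHGA1 at -0.52.

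PCDHGB1 was the only gamma gene called higher. It had 42, 22 and 26 counts in control and 129, 142 and 86 in SRRM4 KO, with no overlap. The log2 fold change was 1.91 (SE 0.30, adjusted p = 0.000128 in edgeR's quasi-likelihood test). On the chromosome it lies between PCDHGA3, which was 18.5-fold lower, and PCDHGA4.

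PCDHGC3 (ENSG00000240184), the C gene with the most counts of any gamma gene, had 1533, 1614 and 1530 counts in control and 2428, 2615 and 2137 in SRRM4 KO. Every SRRM4 KO library was higher, at 104 ± 6.44 against 71.4 ± 3.21 CPM. The log2 fold change was 0.55 (SE 0.09, adjusted p = 0.000128 in edgeR's quasi-likelihood test), so the gene passed the test and not the fold threshold. PCDHGC5 had 30, 24 and 10 counts in control and 29, 31 and 10 in SRRM4 KO. PCDHGC4 had at most 10 counts in any library and was not tested.

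The other tested gamma genes were not called. PCDHGB5 had 1074, 979 and 1013 counts in control and 951, 1028 and 1008 in SRRM4 KO, with a log2 fold change of -0.10 (SE 0.10, adjusted p = 0.423 in edgeR's quasi-likelihood test). PCDHGA6 had 195, 188 and 204 counts in control and 257, 246 and 227 in SRRM4 KO, with 0.25 (SE 0.15, adjusted p = 0.193). PCDHGA12, PCDHGA5 and PCDHGA9 lay at 0.10, -0.20 and 0.52 with standard errors of 0.27, 0.34 and 0.79. PCDHGA8 and PCDHGB6 had too few counts to test, at most 15 in any library. PCDHGA8 holds the exon stretch shared with PCDHGB4, where reads may have been left out.

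Within the subfamilies, beside 7.14% lower and 5.45% higher of all genes tested, 5 of 11 tested A genes fell and none was called higher, with a middle log2 fold change of -0.88. None of these 11 had an unadjusted p under 0.05 on the higher side in edgeR, and DESeq2 made the same calls for all 35 members. Of 6 tested B genes 3 fell and 1 rose (middle value -1.01). The summed level of the A genes was 2.34-fold lower in SRRM4 KO (111 ± 2.91 against 47.4 ± 2.72 CPM), and that of the B genes 1.60-fold lower (178 ± 10.9 against 111 ± 2.88 CPM). The C genes summed to 72.6 ± 3.73 CPM in control and 106 ± 6.86 CPM in SRRM4 KO, a ratio of 1.45 that PCDHGC3 carried.

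The gamma sum was 376, 354 and 353 CPM in control and 266, 267 and 260 CPM in SRRM4 KO, 1.37-fold lower. Without PCDHGC3 it was 1.82-fold lower, from 290 ± 14.0 to 160 ± 3.01 CPM. PCDHGC3 made up 19.8% ± 1.21 of the gamma sum in control and 39.5% ± 1.93 in SRRM4 KO. The share of PCDHGB7 was 17.3% and 11.2%, that of PCDHGB2 11.2% and 7.48%, and that of PCDHGA3 5.86% and 0.435%.

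Per kilobase of unshared exon, PCDHGB7 (22.5 CPM per kilobase) and PCDHGC3 (22.0) overlapped at the top of the gamma cluster in control, followed by PCDHGB5 (17.5) and PCDHGB2 (15.7), which overlapped each other. In SRRM4 KO the first 6 places, PCDHGC3 (32.1), PCDHGB5 (16.3), PCDHGB7 (10.6), PCDHGB2 (7.64), PCDHGB3 (4.86) and PCDHGA4 (3.46), were separate from each other. PCDHGA3 moved from the 6th place (7.86) to the 14th (0.425), and PCDHGB1 from the 17th (0.674) to the 7th (2.54). The number of genes with a mean of at least 1 CPM was 12 in control and 13 in SRRM4 KO for the beta cluster, and 17 and 15 for the gamma cluster.

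**Figure D4:**
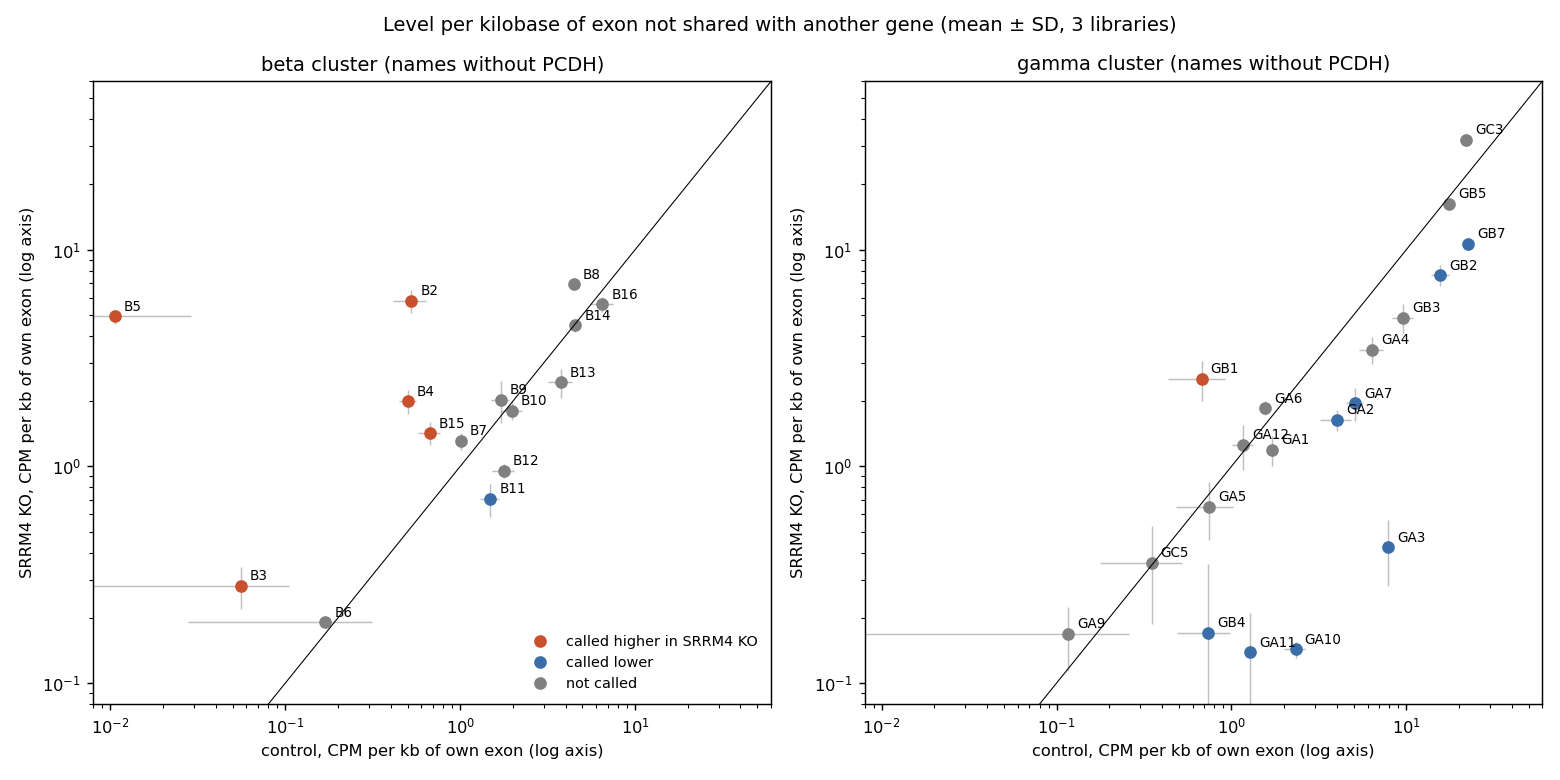
Level of each tested beta (left) and gamma (right) gene as CPM per kilobase of exon not shared with another gene, control on the x axis and SRRM4 KO on the y axis, both log axes. Points are means and bars the SD of 3 libraries, the line marks equal levels, and colors mark the calls. PCDHB2 and PCDHB5 stand far above the line at 5.81 and 4.93 in SRRM4 KO, and PCDHGA3, PCDHGA10 and PCDHGA11 far below it.

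Some limits of counting touch these genes. Many members share stretches with relatives. Of the 50-base windows of the variable part, 12.4% of PCDHB5, 20.3% of PCDHB2, 19.5% of PCDHB3 (most with PCDHB2), 18.4% of PCDHGA3 and 11.4% of PCDHGA10 also occurred in another protocadherin model, but 45.8% of PCDHB8, which shares most with PCDHB13. Several genes also overlap an annotated antisense gene, and in non-stranded libraries reads of both cannot be told apart. The overlapping genes that are no members had 0 counts in all libraries at PCDHA1, PCDHB2, PCDHB5, PCDHB15 and PCDHGB1. They had at most 9 counts at PCDHB3 and 1 at PCDHB11. The rule for reads on several genes is not given, so reads within an overlap may have been left out of both genes. The gene at PCDHGB1 lies wholly within the overlap of 554 bases, where such a rule would fix its count at 0. These counts thus cannot show whether antisense reads are present.

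Genes with the same promoter run were called differently, beside 5.45% higher and 7.14% lower of all genes tested. The 13 tested beta genes with the GGTGGCGCT run were the 5 that rose and 8 that were not called. Of the 12 tested gamma genes with the CGCTGTT run, 6 fell and 6 were not called. Of the 5 tested gamma genes whose promoter lacked it, PCDHGB1 rose, PCDHGB7 and PCDHGA11 fell, and PCDHGB3 and PCDHGC3 were not called. The windows of PCDHB8 (log2 fold change 0.64) and PCDHB13 (-0.62) differ at 1 of 34 bases.

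Of 38 other protein-coding genes within 1000000 bases, 33 were tested, of which 2 rose, 3 fell and 28 were not called, beside 12.6% called of all genes tested. Their middle log2 fold change was 0.07. HBEGF, a growth factor of the EGF family, rose with a log2 fold change of 2.00, and NRG2, a neuregulin, with 1.09. The NRG2 call was lost without SRRM4 KO replicate 2, at 0.86 (adjusted p = 0.0716 in edgeR's quasi-likelihood test). IGIP fell with -1.25, and PCDH1, a protocadherin outside the clusters, fell with -4.93 from 5.94 ± 0.298 to 0.188 ± 0.085 CPM. PSD2, at -1.54, barely passed (adjusted p = 0.0455 in edgeR's quasi-likelihood test). It had 12, 45 and 30 counts in control and 5, 11 and 15 in SRRM4 KO, so that the groups overlapped. Its call was lost with DESeq2 (adjusted p = 0.0700) and without control replicate 2 (0.253) or 3 (0.102) or SRRM4 KO replicate 1 (0.163) or 2 (0.108). Tested against the fold threshold itself, HBEGF remained higher and PCDH1 lower, and the NRG2, IGIP and PSD2 calls were lost. The nearest tested genes on either side were ZMAT2, 79460 bases before PCDHA1, with -0.23 (adjusted p = 0.0684 in edgeR's quasi-likelihood test), and DIAPH1, 2035 bases past the gamma cluster, with 0.34 (adjusted p = 0.00243). TAF7, between the beta and gamma clusters, was at 0.13. On the rest of chromosome 5, 708 genes were tested, 33 were called higher and 47 lower, with a middle value of -0.06.

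None of the 24 chromatin genes listed as regulators of promoter choice was called by edgeR's quasi-likelihood test or by DESeq2, beside 12.6% of all genes tested in edgeR. An unadjusted p under 0.05 in edgeR was found for 13 of them and for 49.1% of all genes tested. Their middle log2 fold change was 0.00. CTCF, which binds the promoters and enhancers of these clusters, was at 60.2 ± 4.07 CPM in control and 59.1 ± 5.24 CPM in SRRM4 KO, a log2 fold change of -0.03 (adjusted p = 0.858 in edgeR's test). SMCHD1, a silencer of the clusters, was at -0.10 (adjusted p = 0.466), DNMT3B, a DNA methyltransferase, at 0.01 (0.976), and REST, a repressor of neuronal genes, at -0.22 (0.0664). An adjusted p under 0.05, always below the fold threshold, was found for 8 of the 24, beside 41.6% of all genes tested. Genes of cohesin and its loaders lay on both sides of this line, with SMC1A at 0.81, RAD21 at 0.55, SMC3 at 0.34 and STAG2 at 0.30 past the adjusted p, and STAG1 at -0.01, PDS5A at 0.02, PDS5B at 0.11, NIPBL at -0.04 and MAU2 at 0.14 not past it. Genes of DNA methylation and demethylation past it were DNMT1 (0.79), DNMT3A (-0.61) and TET3 (-0.88).

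Of 21 genes for partners and processing of protocadherins, such as kinases and the WAVE complex below the membrane and the proteases that cleave them, 1 was called, beside 12.6% of all genes tested. PTK2B, a focal adhesion type kinase that protocadherins bind, fell from 9.70 ± 0.730 to 3.27 ± 0.627 CPM, a log2 fold change of -1.56 (adjusted p = 1.2e-05 in edgeR's quasi-likelihood test). In all 7 of the 21 had an adjusted p under 0.05, beside 41.6% of all genes tested, among them CYFIP2 (0.65) and NCKAP1 (-0.55) of the WAVE complex and PRKCA (0.47). The middle value over the 21 was -0.09.

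**Figure D5:**
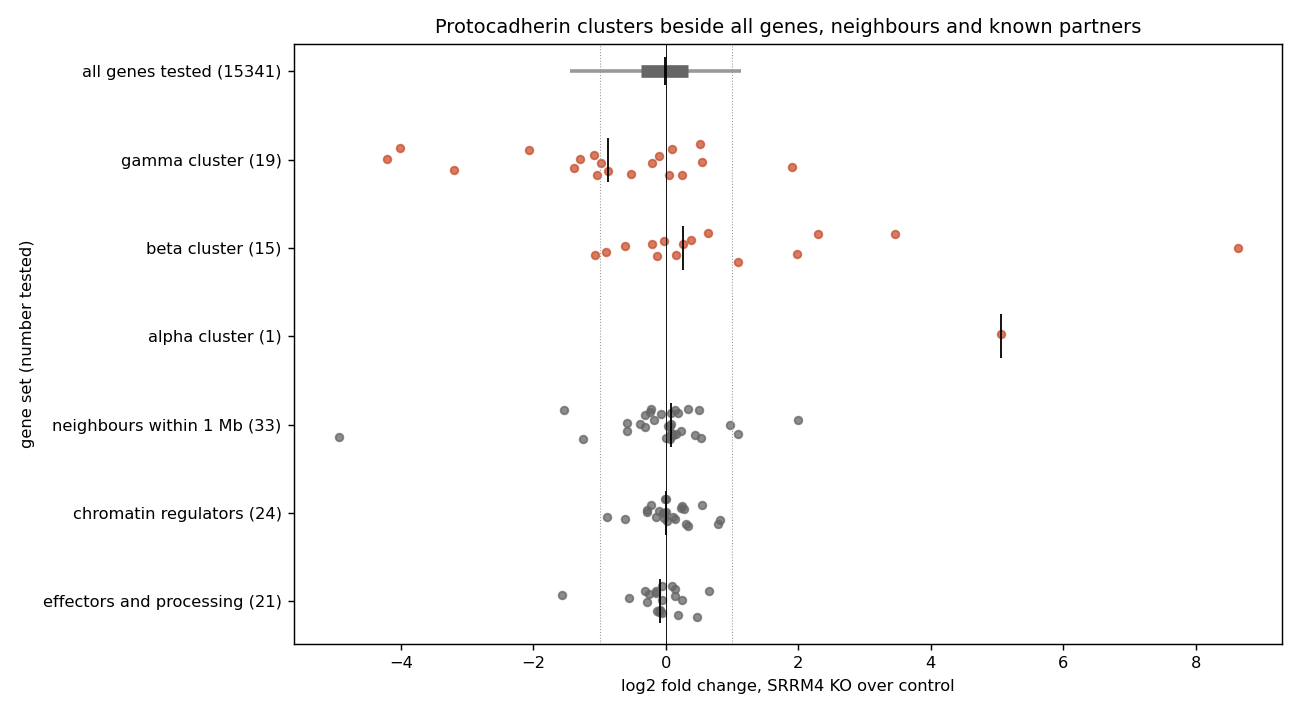
Log2 fold change of SRRM4 KO over control (x axis) for the tested genes of each set (y axis, number tested in brackets), with a bar at the middle value. For all genes tested, the thick line runs from percentile 25 to 75 and the thin line from percentile 5 to 95. The gamma points spread from -4.21 to 1.91 and the beta points from -1.07 to 8.63, while the chromatin regulators lie between -0.88 and 0.81.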

How the data were processed

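Non-stranded mRNA-seq libraries (3 of UE7T-9 control, 3 of the SRRM4 KO line) were grouped by genotype and title. The values deposited by the authors are whole-number read counts for each gene, with no normalization. The submitters' processing notes name HISAT2 2.0.5, featureCounts 1.5.0-p3 and DESeq2. The genome build, the annotation and the rule for reads on several genes are not given in the sources used here. All 58735 gene IDs were found in GENCODE release 29 (GRCh38), 58724 with the same start and end, and all 53 members matched.

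Counts were tested with edgeR 4.0.16 in R 4.3.3 by its quasi-likelihood test, after filterByExpr and TMM scaling. The prior count was 0.125. P-values of 15341 genes were adjusted by the Benjamini-Hochberg method. Calls needed an adjusted p under 0.05 and an absolute log2 fold change over 1. CPM used TMM-scaled library sizes. Totals of 21496117 to 23868323 counts per library set a floor of 3 counts. Exon overlaps came from GENCODE, promoter windows from RefSeq (GRCh38.p14). An exact permutation test of 3 against 3 libraries cannot go below p = 0.10 and was not used. The p-values measure the spread between these libraries, which may be technical. Replicates of each group differed by more than counting noise.

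The members and all gene lists were chosen with earlier results of these data known. All members could be named, with full statistics for called members up to the 8 of highest mean count in a cluster. For the lists, called genes (at most 6 per list) and CTCF, SMCHD1, DNMT3B and REST could be named, and for neighbours the called and the nearest tested genes. Other list genes were named after their values were seen. Lists are described by counts and medians, without a set test. Alternatives were DESeq2 size factors, upper-quartile factors, no count filter, a minimum of 10 counts in each library, a replicate block, each library left out, DESeq2 1.42.0, a test against the fold threshold and no fold threshold. The procedure was tested on simulated data. Proteins were not used here. The values of some list genes are not reported here.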

Additional observations from a re-analysis of the deposited data

How the results depend on the processing

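DESeq2, its size factors, no filter on low counts and the replicate block left the call of each of the 35 tested members as it was. With at least 10 counts in every library, 0 alpha and 3 beta genes were called higher and 6 gamma genes lower (the called genes PCDHA1, PCDHB3, PCDHB5, PCDHGB4 and PCDHGA11 were not tested then), and the middle log2 fold change was 0.10 for beta and -0.72 for gamma. The test against the fold threshold called 3 beta genes higher, 0 beta genes lower and 3 gamma genes lower. Without a fold threshold 6 beta genes were higher and 3 lower, and 2 gamma genes were higher and 11 lower. Leaving out each library in turn gave 3 to 5 beta genes higher, 0 to 2 beta genes lower and 7 to 8 gamma genes lower, and middle values of 0.15 to 0.40 for beta and -0.91 to -0.67 for gamma. The replicate block gave a beta middle value of 0.39, with 842 genes of the table higher and 1093 lower. The labels do not say whether the replicate numbers pair the libraries. Deviations of same-numbered libraries correlated at -0.05, 0.08 and -0.05 across genes, and those of differently numbered libraries at -0.11 to 0.16. Such values cannot show whether libraries were prepared in pairs. DESeq2 called 1 haematopoietic marker lower (ITGAM), and leaving out a library 0 to 1. The test against the fold threshold called 360 genes of the table higher and 577 lower, and no fold threshold 3171 and 3213. For the counts of calls at other settings the cause was not tested. Depth limits the 10 untested members that had counts, none of them over 15 in any library. At PCDHGA8 the exon stretch shared with PCDHGB4 may also limit the counts.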

Other observations

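Protocadherin pseudogenes inside the beta cluster also held counts. They were looked at after the values of the members were seen. PCDHB17P (ENSG00000255622, chr5:141155996-141159061), which lies between PCDHB6 and PCDHB7, had 7, 6 and 4 counts in control and 146, 195 and 119 in SRRM4 KO. Every SRRM4 KO library was far above every control library. Its log2 fold change was 4.65 (SE 0.34, adjusted p = 4.45e-08 in edgeR's quasi-likelihood test). PCDHB18P, between PCDHB14 and PCDHB15, had 42, 25 and 31 counts in control and 92, 77 and 51 in SRRM4 KO, with a log2 fold change of 1.10 (SE 0.33, adjusted p = 0.0155 in the same test). PCDHB19P, between PCDHB18P and PCDHB15, had 2, 2 and 4 counts in control and 6, 27 and 10 in SRRM4 KO and was not tested. Read together with the coding genes, the loci called higher, past both the adjusted p and the fold threshold, were PCDHB2 to PCDHB5, PCDHB17P, PCDHB18P and PCDHB15. PCDHB12 shares more of its 50-base windows with PCDHB17P than with any other protocadherin model, and whether reads were exchanged between them was not tested. PCDHGB8P and PCDHGB9P had at most 6 counts in any library, and PCDHA14 had 0 in all 6.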
